A study of Mus musculus with 24 samples.

Results

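In mouse embryonic stem cells, 5 promoters were examined, those of Gtf2a1, Arid5a, Hif1an, Spg11 and Drg1, at which chromatin immunoprecipitation sequencing (ChIP-seq) gave strong peaks (rows of the deposited lists) with every antibody used. Their percentile of −log10 p, averaged over 6 peak lists, was higher than at any other of the 29327 merged regions that held a peak in every list. Strength therefore chose them, and ranks, pileup, fold enrichment and p-values below are descriptions. In fixed windows of 12 to 18 kb around the 5 gene starts the lists held 103 peaks, of 1811308 in all, and 30 of these, 1 per promoter and library, contained the gene start. The series has 24 samples, of which 6 control libraries are used here: 2 of NELFB:HA, 2 of NELFE and 2 of SPT5. All 6 come from E14, an established mouse embryonic stem cell line, cultured in serum and LIF, with the genotype Nelfb deg and the treatment Control, so every value below comes from cells with that genotype. The other 18 samples, among them those given 500 nM dTAG-13 for 30 min, are not analysed here. Whether the line is a single clone is not given in the sources used here.

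NELF (negative elongation factor) and DSIF, which contains SPT5, bind RNA polymerase II shortly after it starts a transcript and hold it in a paused state close to the gene start. NELFB and NELFE are subunits of the same NELF complex, and NELFB was precipitated here through an HA epitope tag. NELF leaves the polymerase at pause release, whereas SPT5 stays with it into the gene body, so the reach of each factor to either side of a gene start is the measure described here. Gtf2a1 encodes the large subunit of TFIIA, a general transcription factor that steadies TBP on promoter DNA. Arid5a encodes an ARID-domain protein known for binding and stabilising inflammatory mRNAs. Hif1an encodes FIH, the asparagine hydroxylase that limits transactivation by hypoxia-inducible factors. Spg11 encodes spatacsin, a protein of lysosome reformation mutated in hereditary spastic paraplegia. Drg1 encodes a GTPase that associates with translating ribosomes.

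The DNA around the starts is shown because all 6 libraries covered it at each promoter. RefSeq promoters on GRCm38.p6, the same build as mm10, matched 4 of the 5 genes. Each line runs 5′ to 3′ on the strand of the gene, from 200 bases before the start through the first 25 transcribed bases, and capitals mark matches to the motifs searched. The intervals are chr12:91590463-91590687 (minus strand), chr1:36307533-36307757 (plus strand), chr19:44562654-44562878 (plus strand) and chr2:122118362-122118586 (minus strand).
Gtf2a1: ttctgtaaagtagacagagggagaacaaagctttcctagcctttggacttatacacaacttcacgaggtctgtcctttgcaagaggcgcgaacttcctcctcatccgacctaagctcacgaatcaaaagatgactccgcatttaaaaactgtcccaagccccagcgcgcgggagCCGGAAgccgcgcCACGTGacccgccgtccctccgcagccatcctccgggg
Arid5a: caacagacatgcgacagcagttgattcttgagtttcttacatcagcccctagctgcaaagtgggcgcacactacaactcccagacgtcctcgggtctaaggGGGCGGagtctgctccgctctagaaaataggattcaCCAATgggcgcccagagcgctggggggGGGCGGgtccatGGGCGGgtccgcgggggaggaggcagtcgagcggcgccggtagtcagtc
Hif1an: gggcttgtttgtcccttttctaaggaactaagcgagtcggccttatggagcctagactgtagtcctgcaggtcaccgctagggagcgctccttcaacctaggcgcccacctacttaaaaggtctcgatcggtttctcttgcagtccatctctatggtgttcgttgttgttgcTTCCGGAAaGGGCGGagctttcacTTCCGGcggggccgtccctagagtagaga
Spg11: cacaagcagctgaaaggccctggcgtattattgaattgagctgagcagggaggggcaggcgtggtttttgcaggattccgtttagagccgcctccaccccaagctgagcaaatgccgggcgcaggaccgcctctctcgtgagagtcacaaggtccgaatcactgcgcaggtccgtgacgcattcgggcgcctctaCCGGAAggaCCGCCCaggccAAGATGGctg
Counts of motifs were taken over 300 bases, from 250 before to 50 after the start, on both strands. CCGGAA, a core recognised by ETS factors, was found in 3 of the 4 (Gtf2a1, Hif1an and Spg11), and in 15.2% of the 27025 promoters of the table. GGGCGG, a core of SP and KLF factors, was found in 3 of the 4 (Arid5a, Hif1an and Spg11) against 35.9%. In Hif1an a match to CCGGAA on each strand overlaps in the run TTCCGGAA, at positions −28 and −26 from the start. Arid5a alone held CCAAT (38.0% of promoters), Gtf2a1 alone CACGTG (7.24%) and Spg11 alone AAGATGG (6.46%). None of the 4 held TATAAA (14.2% of promoters), TGACGTCA (1.85%), or the palindromic motifs of NRF1 (0.981%) and ZBTB33 (0.503%). A match is a run of letters and not a measured binding site. The ratio of observed to expected CpG was 1.02 in Gtf2a1, 0.822 in Arid5a, 0.83 in Hif1an and 0.646 in Spg11, against a median of 0.389 over all promoters. The GC content of the 4 was 54.3% to 60.3%, against a median of 52.7%.

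The 6 lists held 137102 to 462153 peaks from 27324697 to 62312558 filtered tags per library. Both ends of both ranges were SPT5 libraries. The first had 27324697 tags and 462153 peaks, and the second 62312558 tags and 137102 peaks. Whether this difference bears on the SPT5 borders and their spread was not tested. A peak list gives borders, mean values and no profile, and a border is the point where the authors' weak cutoff (p of 0.1) ends. The 4 NELF libraries each had an input of their own. Both SPT5 libraries were called against 1 further input, which their folds and p-values share, and had longer tags (100 and 101 bp against 50 bp), so antibody and batch cannot be told apart for SPT5, and a value within one batch cannot be given. The labels name no separate cultures, so the spread between 2 libraries may be technical. Starts of embryonic stem cell genes were checked against peaks at a deposited q-value of 0.01 or less. Of 9 such genes with an entry, 7 had a peak at the start in all 6 libraries (among them Pou5f1, Sox2 and Klf4), Nanog in 2 and Esrrb in 0 at its furthest upstream start. Of 3 fibroblast genes (Col1a2, Col3a1 and Postn) and 1 primitive endoderm gene (Pdgfra) with an entry, 0 had one in any library. Of all 27025 gene starts, 20.3% had one in all 6 libraries and the median start in 0. Absence of other cell types is therefore not read from these counts.

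**Figure D1:**
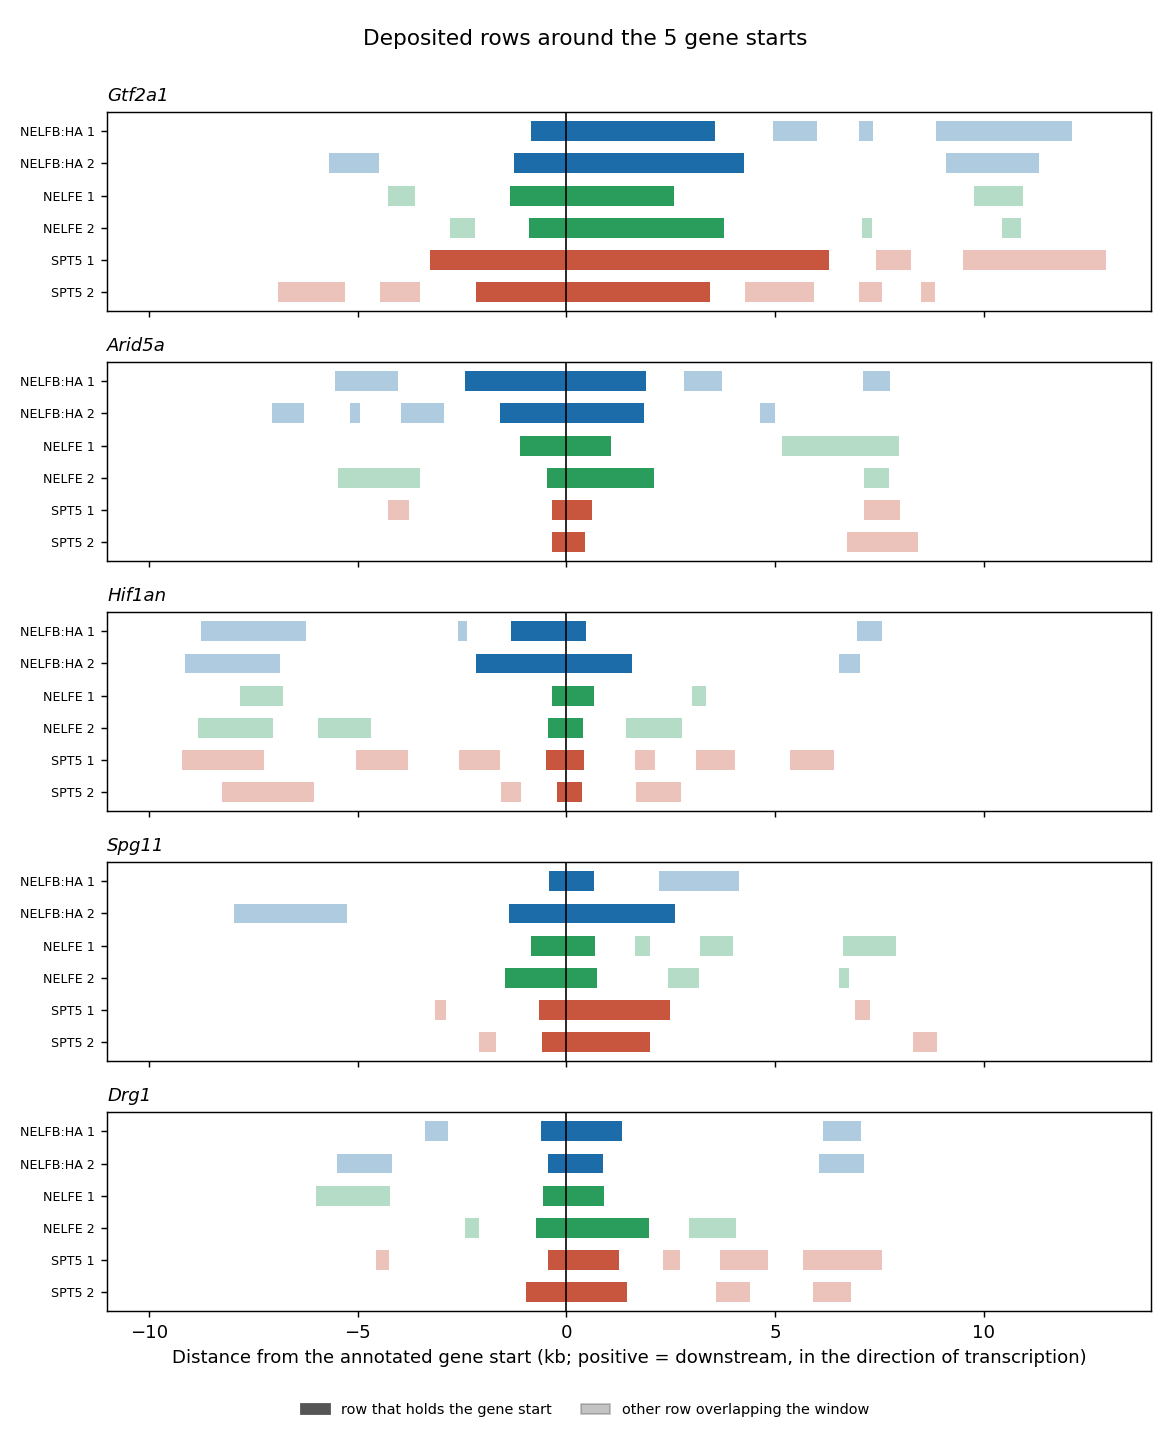
Peaks of the 6 libraries around the 5 gene starts. Horizontal axis: distance from the gene start in kb, positive in the direction of transcription; each bar is 1 deposited peak, dark where it holds the start and pale elsewhere. SPT5 bars at Arid5a span 970 and 787 bp, inside all 4 NELF bars, and those at Gtf2a1 reach 3262 and 2159 bp upstream, beyond all 4. The share of all gene starts with either pattern was not computed.

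Gtf2a1 carried the widest peak of the 5 promoters in all 6 libraries. The gene lies on chromosome 12 from 91555262 to 91590487 on the minus strand, and its furthest upstream start is at 91590487. The peak measured 4402 and 5508 bp in NELFB:HA, 3930 and 4661 bp in NELFE, and 9553 and 5611 bp in SPT5. It reached 834 and 1253 bp upstream and 3567 and 4254 bp downstream in NELFB:HA, and 1346 and 890 bp upstream and 2583 and 3770 bp downstream in NELFE. In SPT5 it reached 3262 and 2159 bp upstream and 6290 and 3451 bp downstream. Both SPT5 libraries thus passed all 4 NELF libraries on the upstream side. The share of gene starts at which SPT5 passed both NELF subunits together was not computed, and shares per pair are given below. Upstream, SPT5 exceeded NELFE by 1592.5 bp (pooled SD 597 bp) and NELFB:HA by 1667 bp (pooled SD 590 bp). Downstream the groups overlapped, and the 1694 bp between SPT5 and NELFE was little above its pooled SD of 1539 bp. The second SPT5 library has a further peak of 1652 bp only 830 bp beyond the downstream border. With peaks joined over gaps of at most 1 kb, a setting chosen after seeing the data, that library reached 5933 bp downstream and both SPT5 libraries passed all 4 NELF libraries there too, by 2935 bp (NELFE) and 2201 bp (NELFB:HA).

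The fold enrichment over input at Gtf2a1 was 16.8 and 11.6 in NELFB:HA, 20.1 and 18.4 in NELFE, and 7.04 and 6.73 in SPT5, as the authors' lists give it. By pileup, which MACS2 gives as the mean scaled coverage of a broad peak, it ranked 54 and 39 in NELFB:HA, 23 and 45 in NELFE, and 157 and 86 in SPT5. In both SPT5 libraries it had the lowest pileup of the 5 promoters, at 44.1 and 73.6, over the widest interval. In the NELF libraries, where it was also the widest, it stood 3 and 3 of 5 by pileup in NELFB:HA and 1 and 2 in NELFE. Pileup is a mean over the interval, and whether width bears on these ranks was not tested. By pileup times width, a rank chosen after seeing the data, it was placed 20 and 5 in NELFB:HA, 13 and 9 in NELFE, and 85 and 332 in SPT5. No other peak in the window exceeded a pileup of 12.2, and the peak at the start was 6.03 to 14.7 times as high as the highest of them in its own library. Inside the gene, from 10447 to 10900 bp downstream, 5 of 6 libraries had a weak peak of 1.72 to 2.01-fold, the second SPT5 library being the exception. From 7097 to 7331 bp downstream, 3 libraries, 1 per antibody, had one of 1.85 to 2.20-fold.

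Unlike Gtf2a1, where SPT5 gave the widest peaks, Arid5a had its narrowest peaks in SPT5. The gene lies on chromosome 1 from 36307733 to 36324037 on the plus strand. Its peak measured 4326 and 3452 bp in NELFB:HA, 2166 and 2555 bp in NELFE, and 970 and 787 bp in SPT5. SPT5 covered the shortest interval, and the groups of widths did not overlap. The share of all gene starts with widths set apart in this way was not computed, so nothing is read from it. Upstream the peak reached 2424 and 1593 bp in NELFB:HA, 1103 and 453 bp in NELFE, and 353 and 335 bp in SPT5. Downstream it reached 1901 and 1858 bp in NELFB:HA, 1062 and 2101 bp in NELFE, and 616 and 451 bp in SPT5. Both SPT5 libraries thus ended inside all 4 NELF libraries on both sides. Shares of gene starts are given below per pair of antibodies and side. The share with this joint pattern was not computed, so nothing is read from it. The SPT5 reach differed from that of NELFB:HA by −1664.5 bp upstream (pooled SD 416 bp) and −1346 bp downstream (pooled SD 85.3 bp). Against NELFE the difference was −434 bp upstream (pooled SD 325 bp) and −1048 bp downstream (pooled SD 526 bp). NELFB:HA also reached further upstream than NELFE in every library, by 1230.5 bp (pooled SD 528 bp). With peaks joined over gaps of at most 1 kb, the first NELFB:HA library reached 3741 bp downstream, and SPT5 then differed from NELFB:HA by −2266 bp there (pooled SD 945 bp).

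Arid5a had the highest SPT5 pileup of the 5 promoters in both libraries, 66.9 and 97.5, at ranks 48 and 25. Its pileup ranks were 41 and 33 in NELFB:HA and 54 and 160 in NELFE. The fold enrichment was 14.8 and 11.1 in NELFB:HA, 12.5 and 12.9 in NELFE, and 10.1 and 8.50 in SPT5. By pileup times width the SPT5 peaks were at ranks 4178 and 5250, whereas the NELFB:HA peaks were at 18 and 43. The 2 SPT5 lists held 462153 and 137102 peaks. The SPT5 peak at Arid5a was therefore placed much lower by summed than by mean coverage, though still high in its list. A weaker peak lay inside the gene, 7131 to 7722 bp downstream of the start, in 5 of 6 libraries, with folds of 1.70 to 2.49. The second NELFB:HA library had none there, and none of these peaks passed a q-value of 0.01. Upstream, 3 intervals between positions −5191 and −3781 from the start were each covered by a weak peak in 3 libraries.

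Hif1an had narrow peaks with 2 of the 3 antibodies. The gene lies on chromosome 19 from 44562854 to 44576274 on the plus strand. Its peak measured 1784 and 3730 bp in NELFB:HA, 988 and 848 bp in NELFE, and 891 and 584 bp in SPT5. It was the narrowest of the 5 promoters in both NELFE and both SPT5 libraries. Upstream it reached 1319 and 2164 bp in NELFB:HA, 330 and 441 bp in NELFE, and 475 and 211 bp in SPT5. Downstream the values were 464 and 1565 bp, 657 and 406 bp, and 415 and 372 bp in the same order. Upstream, NELFB:HA passed NELFE by 1356 bp (pooled SD 426 bp), and SPT5 differed from NELFB:HA by −1398.5 bp (pooled SD 443 bp). NELFE and SPT5 lay close together upstream, with a difference of −42.5 bp, within the pooled SD of 143 bp. With peaks joined over gaps of at most 1 kb, the second SPT5 library reached 1570 bp upstream and both SPT5 libraries then passed both NELFE libraries there, by 637 bp (pooled SD 550 bp). The same joining ended the upstream order of NELFB:HA beyond SPT5, leaving −719 bp (pooled SD 692 bp) with overlapping libraries.

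The fold enrichment at Hif1an was 11.4 and 13.3 in NELFB:HA, 21.5 and 25.4 in NELFE, where it ranked 3 by fold in both libraries, and 7.59 and 7.45 in SPT5. By pileup it ranked 88 and 249 in NELFB:HA, 91 and 86 in NELFE, and 103 and 44 in SPT5. By pileup times width the NELFE peaks were at 2594 and 3472 and the SPT5 peaks at 7382 and 8547. So the promoter with the highest NELFE folds of the 5 had the lowest summed NELFE coverage of the 5, in lists of 203679 and 217115 peaks. Its window also holds the start of Ndufb8, a gene of mitochondrial complex I that lies on the opposite strand, with its start 7412 bp away at 44555442. Ndufb8 had a peak at its start in all 6 libraries, of 4.76 and 4.02-fold in NELFB:HA, 6.08 and 7.22-fold in NELFE, and 3.64 and 2.76-fold in SPT5. Its pileup ranks ran from 1818 to 5566, and at least 5247 bp separated its gene record from every Hif1an peak. Downstream, 1664 to 2128 bp from the Hif1an start, 3 libraries (the second NELFE and both SPT5) had a weak peak of 1.46 to 1.78-fold.

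At Spg11 the reach of SPT5 lay on the downstream side. The gene lies on chromosome 2 from 122053526 to 122119434 on the minus strand, and the RefSeq start used is at 122118386. Its peak measured 1096 and 3959 bp in NELFB:HA, 1529 and 2206 bp in NELFE, and 3155 and 2583 bp in SPT5. Downstream it reached 674 and 2596 bp in NELFB:HA, 683 and 734 bp in NELFE, and 2489 and 2002 bp in SPT5. Both SPT5 libraries passed both NELFE libraries there, by a mean of 1537 bp (pooled SD 245 bp). With peaks joined over gaps of at most 1 kb, the first NELFE library reached 1996 bp, just short of the 2002 bp of the second SPT5 library, and the difference was 880.5 bp (pooled SD 676 bp). The NELFB:HA libraries fell on either side of the SPT5 values, and the 610.5 bp between these antibodies was within the pooled SD of 991 bp. Upstream the order turned: NELFE reached 845 and 1471 bp and SPT5 665 and 580 bp, a difference of −535.5 bp (pooled SD 316 bp). NELFB:HA reached 421 and 1362 bp upstream. When the upstream end of the gene record, 1048 bp further upstream, was taken as the start, only the second NELFB:HA and second NELFE peaks contained it.

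The fold enrichment at Spg11 was 17.2 and 9.34 in NELFB:HA, 13.5 and 13.6 in NELFE, and 7.91 and 6.42 in SPT5. By pileup it ranked 19 and 149 in NELFB:HA, 39 and 109 in NELFE, and 78 and 58 in SPT5. The first NELFB:HA peak was the narrowest of the 5 promoters in its library and had the highest pileup, 131. The second was 3959 bp wide with a pileup of 72.0. Other peaks in the window were weak, with the start 6.56 to 15.2 times as high as the highest of them. Their positions recurred in at most 2 of 6 libraries. The gene record of Patl2, which encodes an oocyte mRNA-binding protein, begins 250 bp beyond the furthest peak border, and its own start lies 67803 bp away. No peak at the Spg11 start entered it.

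At Drg1 the libraries of the 3 antibodies overlapped. The gene lies on chromosome 11 from 3249907 to 3266464, and the end of the record inside its window, 3266464, was taken as the start, which places it on the minus strand. Its peak measured 1953 and 1316 bp in NELFB:HA, 1447 and 2713 bp in NELFE, and 1700 and 2417 bp in SPT5. Upstream it reached 615 and 439 bp, 553 and 721 bp, and 429 and 970 bp in that order of antibodies. Downstream it reached 1337 and 876 bp, 893 and 1991 bp, and 1270 and 1446 bp. Neither side set any antibody apart. Of its 6 differences between antibodies, 1 exceeded the pooled SD: the 251.5 bp downstream between SPT5 and NELFB:HA, with a pooled SD of 247 bp. With peaks joined over gaps of at most 1 kb, the second NELFE library reached 4071 bp downstream and no other library changed, so the groups still overlapped and SPT5 differed from NELFE by −1124 bp (pooled SD 1591 bp).

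The fold enrichment at Drg1 was 10.5 and 13.4 in NELFB:HA, 13.3 and 19.9 in NELFE, and 7.39 and 5.65 in SPT5, the last being the lowest fold at any of the 5 starts. By pileup it ranked 97 and 29 in NELFB:HA, 26 and 29 in NELFE, and 66 and 71 in SPT5. It was thus the 1 promoter of 5 within the 100 highest peaks of every library. Over all 27025 gene starts in the promoter table, which does not list Drg1, 2 (0.0074%) lay in such a peak, those of Mbtps1 and Gm51701, and since the promoters were chosen by strength nothing is read from this. By −log10 p, the measure that chose them, all 5 were within rank 100, and by fold enrichment 1 of 5 (Gtf2a1). By pileup times width 0 of 5 were, with ranks of 107 to 2150 for Drg1. The peak at the Drg1 start was 4.81 to 13.8 times as high as the highest other peak of its window. Inside the gene, 6148 to 6820 bp downstream, both NELFB:HA and both SPT5 libraries had a weak peak of 1.49 to 2.05-fold and neither NELFE library did. From 3686 to 4071 bp downstream, 3 libraries (the second NELFE and both SPT5) had one of 1.56 to 2.07-fold, and 3 libraries had one upstream, at positions −4554 to −4245.

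**Figure D2:**
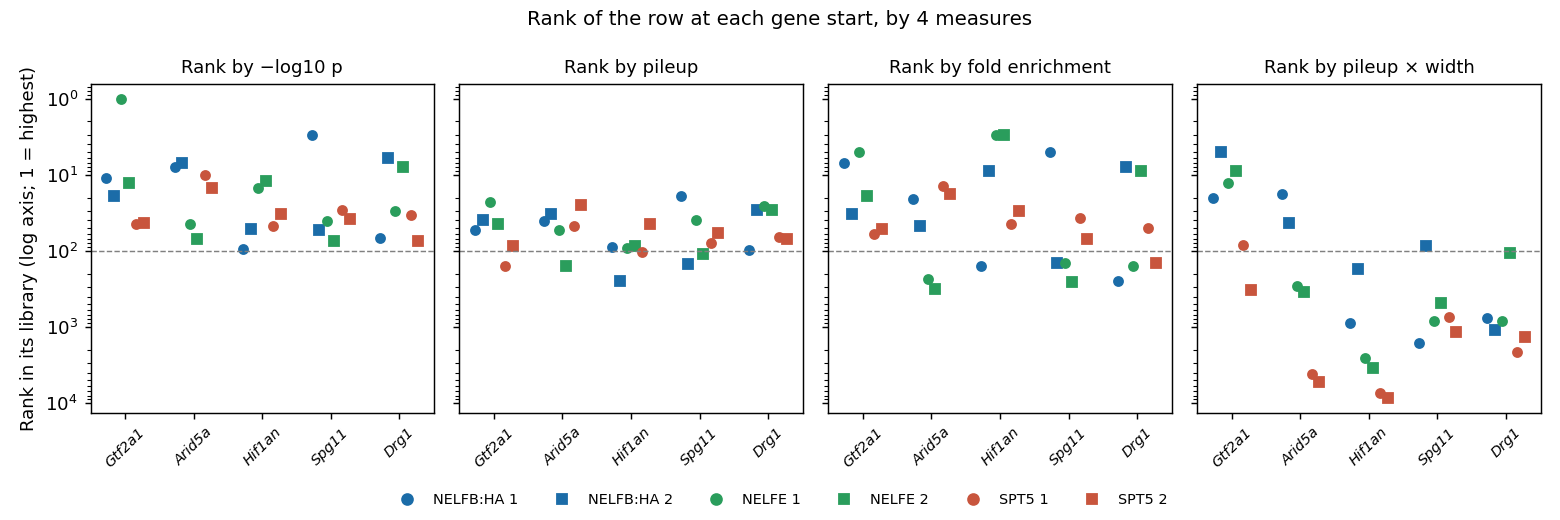
Rank of the peak at each gene start within its library by −log10 p, pileup, fold enrichment and pileup times width. Vertical axis: rank on a log axis, 1 at the top; colours are antibodies, circles and squares libraries 1 and 2, the dashed line rank 100. All points of the first panel lie above the line, while in the last panel the SPT5 points of Arid5a and Hif1an lie between 4178 and 8547.

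**Figure D3:**
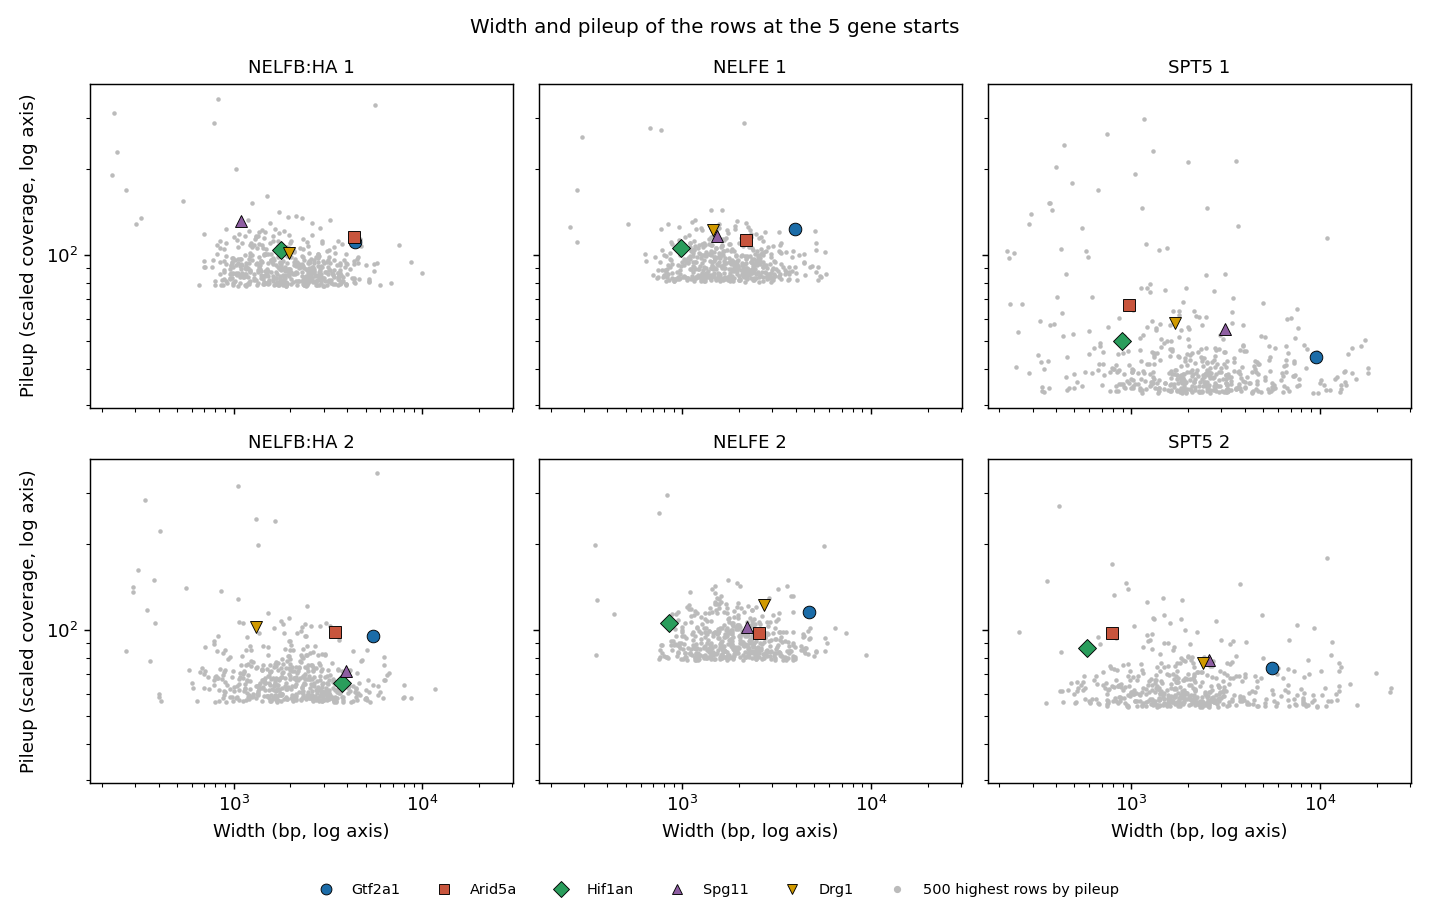
Width (bp, log axis) against pileup (scaled coverage, log axis) of the peak at each gene start, 1 panel per library, with the 500 highest peaks by pileup in grey. Pileup is scaled within a library, so panels are not to be compared in height. Gtf2a1 lies furthest right of the 5 in every panel, and in both SPT5 panels Arid5a is the highest of the 5.

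Across the 5 promoters the reach of SPT5 had no common relation to that of NELF. Both SPT5 libraries passed both NELFE libraries downstream at 1 of 5 promoters (Spg11), against 33.7% of the 8522 gene starts (31.5% of 27025) that lay in a peak of all 6 lists. The reverse held at 1 of 5 (Arid5a), against 12.9%. Upstream, SPT5 passed NELFE at 1 of 5 (Gtf2a1), against 25.7% of gene starts. NELFE passed SPT5 upstream at 2 of 5 (Arid5a and Spg11), against 17.2%. Among the 5477 gene starts (20.3%) whose peak had a q-value of 0.01 or less in all 6 lists, as the 5 promoters have, these 4 shares were 39.2%, 10.5%, 28.0% and 15.6%. Counts of 1 or 2 among 5 promoters were not tested against them.

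Against NELFB:HA, SPT5 reached further downstream in both libraries at 0 of 5 promoters, where 27.5% of gene starts showed this order. NELFB:HA passed SPT5 downstream at 2 of 5 (Arid5a and Hif1an), against 16.3%. Upstream, SPT5 passed NELFB:HA at 1 of 5 (Gtf2a1), against 20.6%, and the reverse held at 2 of 5 (Arid5a and Hif1an), against 20.5%. Among the 5477 gene starts these 4 shares were 32.6%, 13.8%, 22.7% and 19.2%. Of the NELF subunits, NELFB:HA passed NELFE upstream at 2 of 5 (Arid5a and Hif1an), against 21.4%, and NELFE passed NELFB:HA at 0 of 5, against 12.5%. Downstream neither NELF subunit passed the other at any of the 5, against 22.5% for NELFB:HA and 12.1% for NELFE. Among the 5477 gene starts the shares were 21.3% and 12.2% upstream and 22.2% and 12.1% downstream.

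Each difference between antibodies was tested per promoter and side with a two-sided exact permutation test of 2 libraries against 2, which cannot fall below a p of 0.333. That value was reached in 12 of 30 tests, with adjusted p-values of 0.833 to 1 over the 30, so no difference passes a threshold. Differences exceeded the pooled SD in 16 of 30. That SD rests on 2 libraries per antibody, and the share of all gene starts exceeding it was not computed, so nothing is read from this count. The comparisons that share an antibody share its libraries.

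**Figure D4:**
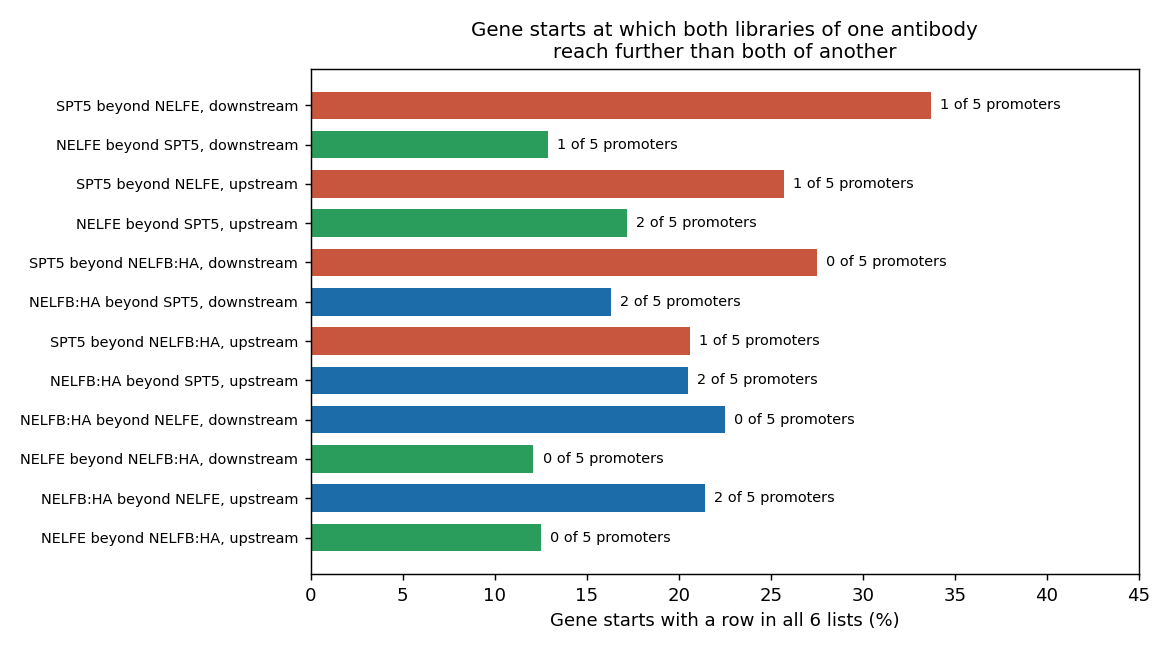
Share of the 8522 gene starts with a peak in all 6 lists at which both libraries of one antibody reached further from the start than both of another, in percent (bars, coloured by the antibody that reached further). The number beside each bar gives the count among the 5 promoters, from 0 to 2, for example 1 of 5 for SPT5 beyond NELFE downstream, where the bar stands at 33.7%.

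The peaks were longer on the downstream side of the start in 22 of the 30 cases. Gtf2a1 and Drg1 were longer downstream in 6 of 6 libraries, with 61.5% to 81.0% and 59.8% to 74.7% of the width lying downstream. All 6 libraries showed this at 9.79% of the 8522 gene starts and at 10.7% of the 5477. Arid5a and Spg11 were longer downstream in 4 of 6 libraries, and Hif1an in 2 of 6. For Gtf2a1 this rests on the start used: from its second annotated start, 838 bp further downstream, the first NELFE peak reached 2184 bp upstream and 1745 bp downstream, and the second SPT5 peak 2997 and 2613 bp. In single libraries, 53.4% to 62.2% of the 5477 gene starts had the longer side downstream.

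The interval shared by all 6 libraries contained the start at each promoter by construction, since each peak was taken for holding it. It measured 3418 bp at Gtf2a1 (834 bp upstream to 2583 bp downstream), 787 bp at Arid5a (335 to 451 bp) and 584 bp at Hif1an (211 to 372 bp). At Spg11 it measured 1096 bp (421 to 674 bp) and at Drg1 1306 bp (429 to 876 bp). The widest peak of a promoter was 2.06 times its narrowest at Drg1, 2.43 times at Gtf2a1, 3.61 times at Spg11, 5.50 times at Arid5a and 6.39 times at Hif1an. The median widths of the peaks at the 5477 gene starts were 2322 and 2621 bp in NELFB:HA, 1966 and 2177 bp in NELFE, and 3244 and 2589 bp in SPT5. In the first SPT5 library 1 of the 5 promoters, Gtf2a1, was wider than this median, and in the second again Gtf2a1 alone. The 100 highest SPT5 peaks by pileup were narrower too, with median widths of 1279.5 and 1824 bp. Gtf2a1, Spg11 and Drg1 were wider than these medians in both libraries, and Arid5a and Hif1an narrower.

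Away from the starts the windows held 73 other peaks. Of these, 6 had a q-value of 0.01 or less, and these were the Ndufb8 peaks of the 6 libraries. The others had folds of 1.46 to 2.49 (median 1.74), where the 30 peaks at the starts had folds of 5.65 to 25.4. The best pileup rank among them was 7181, for the first SPT5 library 7125 bp downstream of the Arid5a start.

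Beside the 5 promoters stood others of nearly the same strength. The mean percentile of −log10 p was 99.98354 for Drg1, the last inside the rule, and 99.97493 for Mbtps1 (the site-1 protease), the first outside it, on chromosome 8 from 119557369 to 119560264. Mbtps1 ranked 20 to 93 by pileup and no lower than 100 by −log10 p in the 6 libraries. Next came the region holding the starts of Eif1, a translation initiation factor, and Gast at 99.9703. By ranks of pileup over the 6 libraries, with the other 4 promoters left out, the region most like Arid5a and Hif1an was that of Mbtps1, with mean absolute differences of log10 rank of 0.236 and 0.2. For Gtf2a1 and Drg1 it was the region of Eif1 and Gast (0.293 and 0.265), and for Spg11 that of Cirbp and Fam174c (0.237).

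Genes of the same complex, family or pathway as the 5 were listed and examined in the same way. Of the 27025 gene starts, 20.3% lay in a peak with a q-value of 0.01 or less in all 6 lists, and the median gene start had such a peak in 0 libraries. Of 20 general transcription factor genes with an entry, Gtf2a1 included, 15 had one in all 6 libraries. Gtf2b, whose product joins TBP at the promoter, ranked 42 to 1896 by pileup and Taf4, a TFIID subunit, 29 to 361, whereas Gtf2h4, a TFIIH subunit, had none. Of 10 ARID family genes, Arid5a included, 7 had one in all libraries, with ranks of 234 to 3158 for Arid4b. The closest relative Arid5b, and Arid3c, had none. Of 11 oxygen-sensing genes, Hif1an included, 8 did, among them Hif1a at ranks of 1043 to 3518, and Hif3a had none. Of 6 genes of the spatacsin and AP-5 group, Spg11 included, 4 did, with ranks of 5588 to 8666 for Zfyve26, which encodes the partner of spatacsin. All 3 DRG genes with a start did, Drg1 included, with ranks of 4951 to 8478 for Drg2 and 808 to 2515 for Zc3h15, which encodes the partner of DRG1. The median gene of each list had such a peak in all 6 libraries.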

How the data were processed

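ChIP-seq peak lists of 6 control libraries of E14 mouse embryonic stem cells were used. The authors called peaks with MACS 2.1.1.20160309 in broad mode, 1 library against an input, without pooling replicates, with p cutoffs of 0.01 (strong) and 0.1 (weak), tags extended to 227 bp (NELF) or 206 bp (SPT5) and the larger of ChIP and input scaled to the smaller, per the file headers. Bowtie2, deepTools and build mm10 are named in the submitters' processing notes. The deposited pileup signal is mean scaled coverage, and the deposited fold is its ratio to the local input. The deposited −log10 p and −log10 q values are means over a peak. Although the headers announce no q-value, the deposited column is filled and was used. All these values were compared within a list only, by rank (1 is highest).

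Groups and replicate numbers came from titles. The members, lists and tests were chosen with earlier results of these data known. The gene start was the furthest upstream entry per gene of RefSeq promoters on GRCm38.p6 (27025 genes, coordinates counted from 1), and for Drg1 the end of its gene record in the window. No exon annotation was used. Reach is the distance from the start to the border of the peak that holds it. One antibody passed another where both its libraries reached further than both of the other. Differences have the pooled SD and a two-sided exact permutation test, Benjamini-Hochberg adjusted over 30. Named genes were the 5, genes in their windows, the 2 regions next in strength and the region most alike in pileup rank for each. Of the lists of related genes, members with a peak in every library or in none could be named, and only examples are given. The script for reach was tested on simulated data. Python 3.11.15, pandas 2.3.3, numpy 2.4.6 and scipy 1.17.1 were used.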

Additional observations from a re-analysis of the deposited data

How the results depend on the processing

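Of 68 alternatives for 20 results, 40 left the value within its error or within 1.5 times and 28 moved it. Taking differences over 250 bp changed none of the 6 counts of promoters. Peaks with a q-value of 0.01 or less, or the midpoint of the NELF peaks as reference, changed none by construction. All 30 peaks at the starts had such a q-value already. Joining every peak of a window, which measures the window more than the promoter, moved SPT5 beyond NELFE downstream from 1 to 2, SPT5 beyond NELFB:HA from 0 to 2 downstream and from 1 to 0 upstream, and NELFB:HA beyond NELFE from 0 to 3 downstream and from 2 to 1 upstream, and the median width from 2311.5 to 11822 bp. Joining peaks over gaps of at most 1 kb, chosen after seeing the data, moved SPT5 beyond NELFE to 2 on both sides and SPT5 beyond NELFB:HA downstream to 1, and ended NELFB:HA beyond SPT5 upstream at Hif1an. Leaving out each replicate number, which leaves 1 library per antibody and no test, gave 1 to 3 promoters for SPT5 beyond NELFE downstream, 2 to 2 upstream, 1 to 2 and 2 to 2 for SPT5 beyond NELFB:HA, and 3 to 3 on both sides for NELFB:HA beyond NELFE. Counts can only stay or rise there, by construction. With the replicate block, comparing same-numbered libraries, NELFB:HA beyond NELFE downstream went from 0 to 1 and the other 5 counts were 1, 1, 0, 1 and 2, as without it. No share of all gene starts was taken under the joined, single-library or block settings, so these counts have no background beside them. Replicate numbers follow the titles. In the headers the NELF libraries are called 2 and 3, with SPT5 at 1 and 2, so SPT5 and NELF share 1 header number there and no block between them could be fitted by it. Whether same-numbered libraries share more than a number is not given in the labels. The replicate differences in log2 width correlated between antibodies at −0.00561, −0.00597 and −0.0042 over 8522 gene starts. Such a correlation cannot show whether libraries share a culture. The number of promoters within the 100 highest peaks of every library went from 1 by pileup to 5 by −log10 p and to 0 by pileup times width, and was 2 to 3 when a replicate number was left out. The number longer downstream in every library went from 2 to 1 with the other annotated start of Gtf2a1 and Spg11. Whether a weak border or a real edge ends a peak cannot be read from lists of borders, and the cause of these moves was not tested.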
